A study of Mus musculus with 84 samples.

Results

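Cyclic nucleotide signalling enzymes and anchors are described here in single neurons of the mouse prefrontal cortex. The members were taken by name and not by value, though with earlier results of these data known. They are the adenylyl cyclases (Adcy), the lettered phosphodiesterases (Pde), the regulatory and catalytic subunits of protein kinase A (Prkar, Prkac) and the numbered A-kinase anchoring proteins (Akap). The pattern matched 53 of 19685 genes in the count table, and 45 of these were measured, which means a count in at least 8 of the 84 neurons. They comprise 10 adenylyl cyclases (9 measured), 21 phosphodiesterases (16 measured), 4 regulatory subunits and 2 catalytic subunits (all measured), and 16 anchors (14 measured).

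Adenylyl cyclases make cyclic AMP when G protein-coupled receptors, or for some isoforms calcium and calmodulin, activate them, and phosphodiesterases break cyclic AMP and cyclic GMP down again. Protein kinase A rests as a complex of regulatory and catalytic subunits; cyclic AMP binds the regulatory subunits and frees the catalytic ones, which phosphorylate channels, receptors and transcription factors such as CREB. Anchoring proteins hold the kinase beside its substrates, at synapses, mitochondria or the nucleus. In the prefrontal cortex this pathway is known for its part in dopamine and noradrenaline signalling and in working memory.

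The neurons came from acute slices of cortex of untreated C57/BL6/N mice, and each was drawn into a patch-clamp pipette after recording. Its RNA was amplified and sequenced from a stranded library. The titles carry the letter F (25 cells) or P (59 cells). The title of the series names pyramidal and fast-spiking cells, but no label spells out the letters, the age or the animal, so the letters are kept and each group is treated as 1 sample. No test between the groups is therefore given. Intervals are exact 95% Clopper-Pearson intervals over cells and cover only the draw of cells. Reads of amplified RNA that carry no molecular identifier cannot be taken as separate molecules.

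Promoter windows of 300 bases (250 before to 50 after a RefSeq start, assembly GRCm38.p6) matched 43 of the 53 members. They were searched on both strands for the cyclic AMP response element TGACGTCA, the site that CREB binds, and for its shorter core TGACG, which lies within it. TGACGTCA was in a window of 2.03% of all 27025 genes and of 1 of the 43 members (2.33%), Prkar1a, or 1.79% of all 32851 windows and 2.35% of the 85 windows of members. TGACG was in a window of 23.05% of all genes and of 15 members (34.9%), or 20.8% of all windows and 20% of those of members, which had more windows per gene. The 3 sequences below are shown because Prkar1a alone held the whole element and led the regulatory subunits per length, Prkacb led the catalytic subunits, and Pde1a differed most between the groups among the phosphodiesterases. Capitals mark TGACGTCA or TGACG as read on either strand, and each sequence runs 5′ to 3′ on the strand of its gene. The windows are chr11:109650699-109650998 on the plus strand for Prkar1a, chr3:146812897-146813196 on the minus strand for Prkacb and chr2:80038853-80039152 on the minus strand for Pde1a, which is 1 of several starts listed for that gene.
Prkar1a: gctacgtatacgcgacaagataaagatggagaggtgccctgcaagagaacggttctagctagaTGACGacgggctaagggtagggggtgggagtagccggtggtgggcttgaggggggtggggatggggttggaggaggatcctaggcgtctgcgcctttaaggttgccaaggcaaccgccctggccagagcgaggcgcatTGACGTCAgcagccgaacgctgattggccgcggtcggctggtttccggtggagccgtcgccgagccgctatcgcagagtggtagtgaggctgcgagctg
Prkacb: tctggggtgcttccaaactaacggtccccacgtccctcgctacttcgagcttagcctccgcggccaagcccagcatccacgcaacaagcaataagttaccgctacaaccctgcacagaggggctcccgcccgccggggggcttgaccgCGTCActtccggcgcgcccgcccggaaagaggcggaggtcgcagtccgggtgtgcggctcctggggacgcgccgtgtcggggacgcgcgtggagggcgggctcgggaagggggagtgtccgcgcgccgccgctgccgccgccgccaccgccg
Pde1a: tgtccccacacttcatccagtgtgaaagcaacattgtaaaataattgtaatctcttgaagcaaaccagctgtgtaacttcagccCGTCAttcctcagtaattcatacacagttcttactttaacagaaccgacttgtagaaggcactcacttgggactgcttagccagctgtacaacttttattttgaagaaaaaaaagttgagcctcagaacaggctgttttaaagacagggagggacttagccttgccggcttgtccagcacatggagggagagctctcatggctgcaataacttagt
The element of Prkar1a began 49 bases before the start, at position -49. The core began at -102 in the Prkacb window and at -166 in the Pde1a window. A match describes these letters and shows no binding.

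Total counts ran from 36594 to 12043599 in F cells (median 680044) and from 19802 to 16251918 in P cells (median 2706396). F13 to F28, the 16 F libraries with these numbers in their titles, were shallow (median 246319). They were drawn as a set because all held Celsr1 and Klhl18 in similar ratios. Counts of Celsr1 over those of Klhl18 ran from 1.18 to 2.60, and this likeness was fixed by that choice. F11 and F12 were closer to each other (r = 0.961 over genes on log2 CPM) than any other pair of libraries (next 0.621). Basecalling used an earlier version of bcl2fastq (v1.8.4, 3 F and 6 P cells) or a later one (v2.17, 22 F and 53 P cells). The labels give these versions and do not call them batches. The names earlier batch and later batch below stand for the version alone and imply no order in time. Of the measured GABAergic markers, 14 of 15 were at least 2-fold higher in F and none lower. All 13 glutamatergic markers were at least 2-fold lower. Over all measured genes, 18.5% were at least 2-fold higher and 46.4% lower. Dlx2, Dlx5 and Nxph1 turned to the lower mean in F without F27, F14 and F24 in turn. The other GABAergic markers past 2-fold kept their direction. The 13 glutamatergic markers kept the lower mean without their highest P cell, with Slc17a6 near even. Pvalb, found in 2 F and 5 P cells, was not measured. Summed astrocyte markers ran from 0 to 18170 CPM (counts in 1000000) in F and from 0 to 100013 in P. Of these, 7 of 9 were at least 2-fold lower in F, and Aldh1l1 was at 0 in F. Aqp4, Gfap and Gja1, which are among the 7, turned to the higher mean in F without P16. Summed microglial markers ran from 0 to 44862 CPM in F and from 0 to 16545 in P (3 of 10 at least 2-fold higher and 4 lower in F), oligodendrocyte markers from 0 to 21411 and from 0 to 12420 (3 and 3 of 7), and endothelial and mural markers from 0 to 3156 and from 0 to 224 (1 and 1 of 3, with Pecam1 at 0 in F). The part of these cell types and of depth in the results below was not tested.

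Levels are CPM of a cell's total. The log2 fold compares the mean of all F cells with the mean of all P cells after 1 CPM is added to both, and is above 0 where F was higher. Because a mean follows its largest cells, the share of the 1475 pairs of 1 F and 1 P cell in which the F cell was higher is given beside it, with ties split evenly. A gene was found in a cell with at least 1 count. Shares at equal depth come from cells thinned to 86539 counts, which kept 22 F and 53 P cells and left out 3 and 6.

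Across the 45 measured members the means pointed both ways, and most rested on few cells. The F mean was higher for 21 members, 46.7% against 34.7% of all 11324 measured genes. It was at least 2-fold higher for 12 members, 26.7% against a background of 18.5%, and at least 2-fold lower for 17, 37.8% against 46.4%. The median log2 fold was -0.39 over the members and -0.79 over all measured genes. F cells were higher in over 50% of pairs for 14 members (31.1%, background 29.2%), or for 16 at equal depth (35.6%, background 38.6%), and the mean and the pairs pointed opposite ways for 15 (33.3%, background 28.1%). A single cell held over 50% of the summed CPM of the higher group for 33 members (73.3%, background 65.3%). Without F13 to F28, 13 members had the higher mean in F (28.9%, background 33.4%). Then 7 were at least 2-fold higher (15.6%, background 19.3%) and 18 at least 2-fold lower (40%, background 45.6%). The shares with F higher were thus above the background over all cells and below it without F13 to F28. The F mean was higher for 17 members within the earlier batch (37.8%, background 32.8%) and for 20 within the later one (44.4%, background 32.7%).

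**Figure D1:**
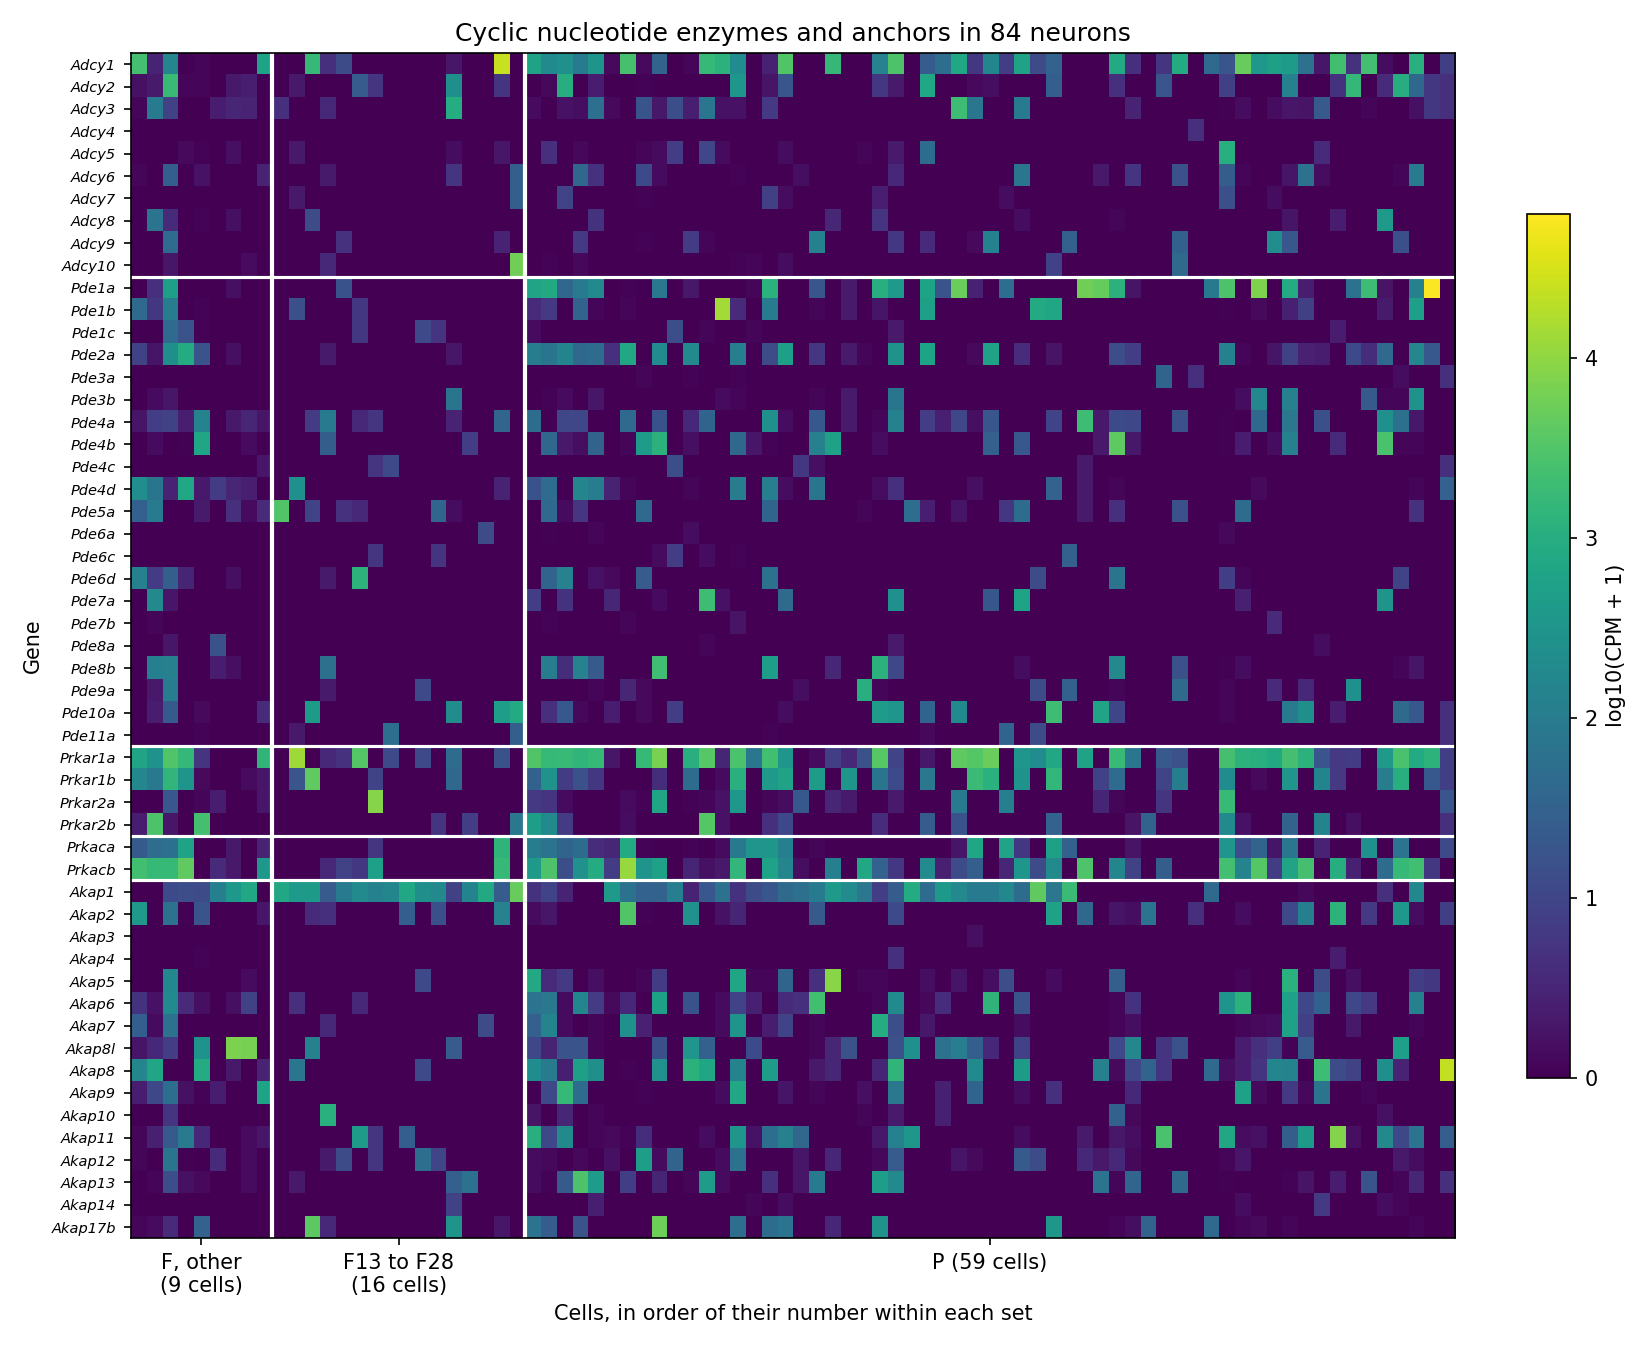
Level of each of the 53 members (rows, grouped by role) in each of the 84 neurons (columns), as log10(CPM + 1); white lines part the 9 other F cells, F13 to F28 and the 59 P cells. Bright cells are scattered along most rows, Adcy1, Pde1a, Prkar1a and Prkacb are filled in many P cells, and Akap1 is filled in all 16 of F13 to F28.

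Of the 29 members with at least a 2-fold difference, 13 kept it when any 1 cell was left out: Adcy9, Pde1a, Pde1b, Pde4b, Pde7a, Pde8b, Akap5, Akap6, Akap7, Akap8, Akap8l, Akap11 and Akap13. All but Akap8l were lower in F. Of all measured genes, 46.4% were at least 2-fold lower in F and 18.5% higher. How many of those genes keep the difference without any 1 cell was not computed, so the 13 members have no background share. Akap8l was high in both F11 and F12, the near-identical libraries, so leaving out 1 of them kept the other. Without both, its direction turned. Adcy1, Adcy10, Akap10 and Prkar2a turned round without 1 cell.

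**Figure D2:**
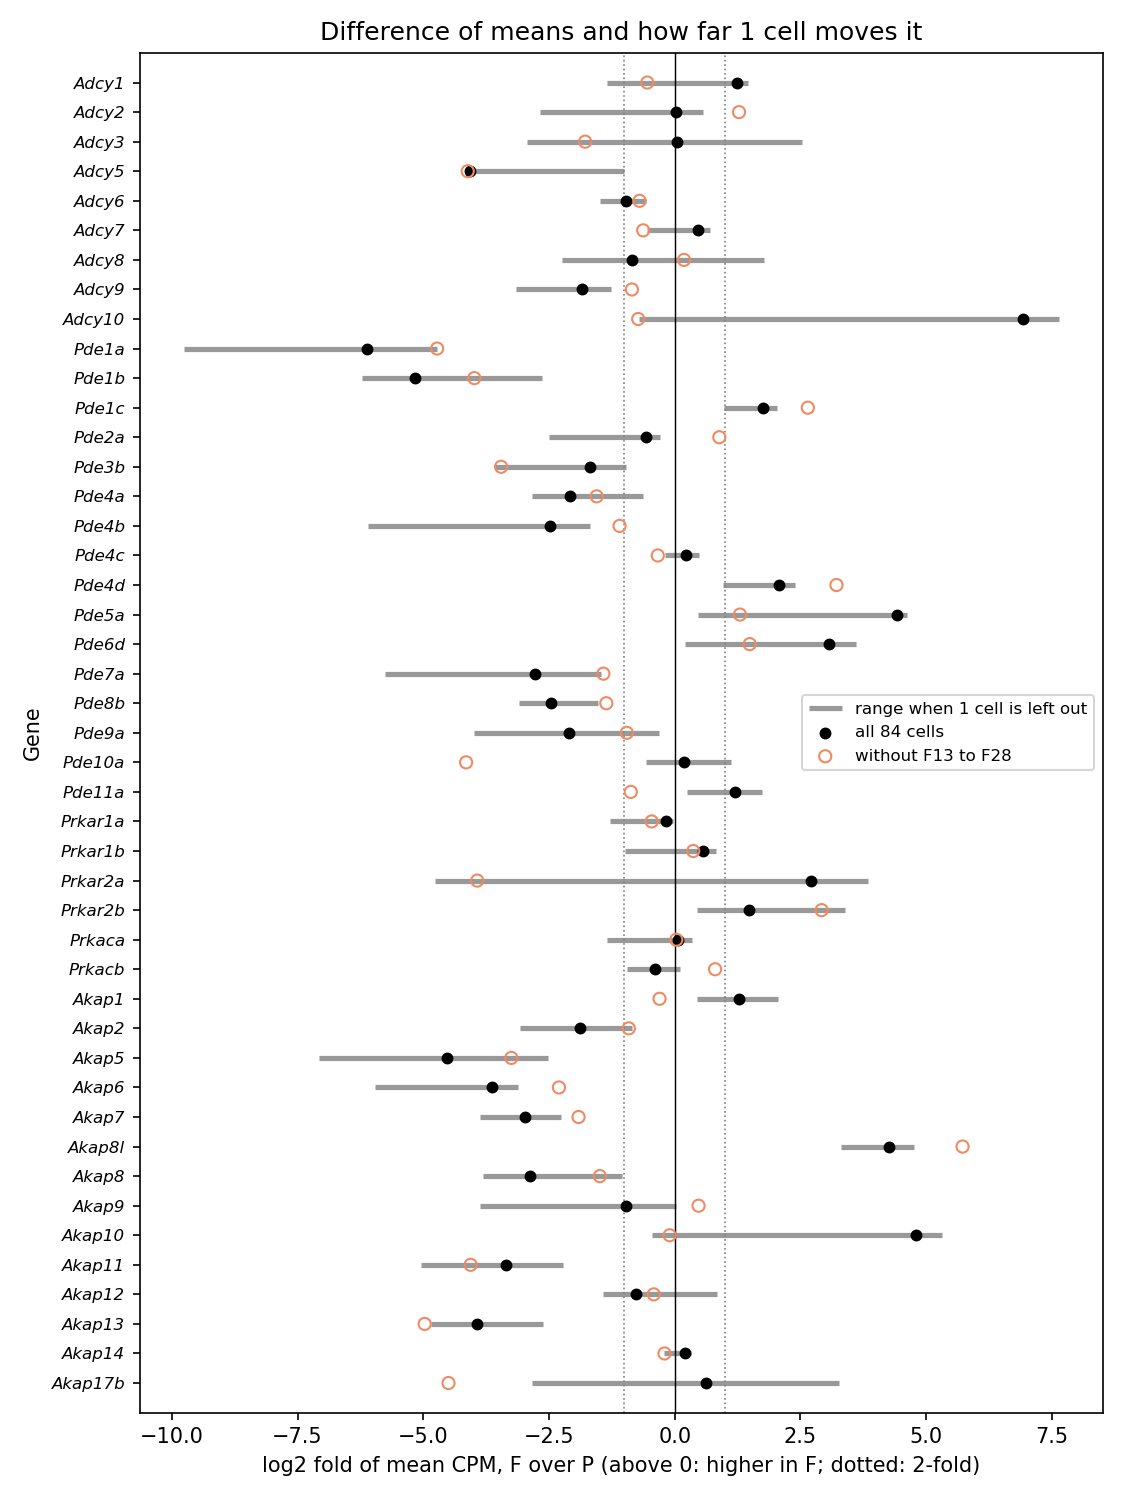
Log2 fold of mean CPM, F over P, for the 45 measured members (black, all 84 cells), with the range when any 1 cell is left out (grey bar) and the value without F13 to F28 (open circle); dotted lines mark a 2-fold difference. Of the members past 2-fold, the bars of Adcy1, Adcy10, Akap10 and Prkar2a cross 0, and those of Pde1a, Akap5, Akap6, Akap11 and Akap13 stay below the lower dotted line.

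Among the adenylyl cyclases, Adcy1 was the isoform found in most cells of both groups together, and its mean and its cell-by-cell levels pointed opposite ways. Without thinning Adcy1 was found in 45 of 59 P and 11 of 25 F cells, and Adcy2 in 24 and 12. Adcy1 encodes a cyclase stimulated by calcium and calmodulin and lies at chr11:7063489-7178506 on the plus strand of mm10 (ENSMUSG00000020431.5). It ranged from 0 to 25292 CPM across F cells (median 0), and from 0 to 4815 CPM across P cells (median 31.3). The groups overlapped: 24 P cells and 5 F cells exceeded 100 CPM, and the highest level of all was in F27, which held 84.03% of the F sum. Means were 1204 CPM in F and 511 CPM in P, a log2 fold of 1.23 that became -1.35 without F27 and -0.55 without F13 to F28. P cells were nevertheless higher in 68.7% of pairs. At equal depth Adcy1 was found in 6 of 22 F cells (27.3%, interval 10.7 to 50.2) and 32 of 53 P cells (60.4%, 46.00 to 73.5). Only 4 members (8.89%, background 4.34%) were at least 20 percentage points more frequent in P at equal depth: Adcy1, Pde1a, Pde2a and Prkacb. Within the earlier batch the Adcy1 means were 793 and 240.1 CPM in F and P, and within the later batch 1260 and 542.

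Adcy2, a cyclase stimulated by G protein beta-gamma subunits, had like means over all cells. It ranged from 0 to 1815 CPM in F cells (median 0) and from 0 to 1579 in P cells (median 0). The means of 84.1 and 82.7 CPM gave a log2 fold of 0.02, and -2.69 without F5, which held 86.3% of the F sum. Without F13 to F28 it was 1.28, with F higher in 61.8% of pairs. The F and P means were 0.689 and 163 CPM in the earlier batch and 95.5 and 73.7 in the later. Adcy2 was found at equal depth in 5 of 22 F and 12 of 53 P cells, and F cells were higher in 51.4% of pairs.

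Adcy5 and Adcy9 had the lower mean in F. Adcy5, the main striatal isoform, did not exceed 1.17 CPM in any F cell and reached 1004 CPM in P61, which held 93.1% of the P sum. Its means were 0.142 and 18.3 CPM (log2 fold -4.08, and -1.0 without P61), and the pairs were split at 50.2% in favour of F, with the gene found in 6 of 25 F and 13 of 59 P cells. Adcy9, a widely expressed cyclase, was found in 3 F and 14 P cells. It ranged from 0 to 45.8 CPM in F and to 220.4 CPM in P, with means of 2.06 and 9.99 CPM, a log2 fold of -1.85 (-3.15 without F5, -1.27 without P64, -0.85 without F13 to F28) and P cells higher in 56.1% of pairs.

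Adcy10, the soluble cyclase that bicarbonate activates, owed its F mean to 1 library. F28 had 5684 CPM, 99.9% of the F sum, and the next F cell 2.39 CPM, while P cells ran from 0 to 43.9. The log2 fold of 6.92 (means 228 and 0.890 CPM) became -0.71 without F28 and -0.73 without F13 to F28. It was found in 4 F and 7 P cells, and F was higher in 52.5% of pairs. The other cyclases were Adcy3, Adcy6, Adcy7 and Adcy8, whose folds after 1 CPM was added stayed under 2 and whose means did not exceed 42.4 CPM, and Adcy4, found in 1 P cell. Exons of Adcy3 lie opposite those of Cenpo over 22.1% of their bases, and whether reads were counted by strand is not given in the sources used here.

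Among the phosphodiesterases the means lay furthest apart for Pde1a, a calcium and calmodulin-dependent enzyme that hydrolyses both cyclic nucleotides. Pde1a (ENSMUSG00000059173.19, chr2:79834453-80129458, minus strand) ranged from 0 to 524 CPM in F cells and from 0 to 58074 CPM in P cells, with medians of 0 and 0.827. High levels were almost all in P: 17 P cells exceeded 100 CPM and 1 F cell did, F5, which held 96.4% of the F sum. Means were 21.7 and 1577 CPM, a log2 fold of -6.12. It stayed at -4.73 without P74, the cell with 62.4% of the P sum, at -9.77 without F5 and at -4.72 without F13 to F28. P cells were higher in 71.9% of pairs. Pde1a was found at equal depth in 3 of 22 F cells (13.6%, interval 2.91 to 34.9) and 24 of 53 P cells (45.3%, 31.6 to 59.5). Of the 9 other F cells, 2 had it at that depth. The difference had the same direction in both batches, with means of 1.20 and 295 CPM in the earlier batch and 24.5 and 1722 in the later one.

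The means of its relatives Pde1b and Pde1c differed in opposite directions. Pde1b, known from dopamine-receptive neurons, ranged from 0 to 103 CPM in F and from 0 to 13712 CPM in P, where P21 held 83.2% of the sum. The means of 6.77 and 279 CPM gave a log2 fold of -5.17, -2.65 without P21, -6.21 without F5 and -3.99 without F13 to F28; the gene was found in 6 F and 20 P cells and P was higher in 54.6% of pairs. Pde1c was found in 6 F and 6 P cells, up to 46.7 CPM in F and 12.99 in P. Means of 3.33 and 0.278 CPM gave 1.76 (0.98 without F5, 2.65 without F13 to F28), and F was higher in 57.5% of pairs. Per kilobase of exon, Pde1a had the most counts of the 3 in 22 of 30 P cells with at least 10 counts of the family and in 1 of 5 such F cells. Pde1b led in the other 8 P cells and in 3 F cells.

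The PDE4 enzymes, which are specific for cyclic AMP and are the targets of rolipram, also divided. Pde4d had the higher mean in F, and Pde4a and Pde4b the lower. Pde4d ranged from 0 to 728 CPM in F cells and from 0 to 152 CPM in P cells, with medians of 0. At full depth 8 of the 9 F cells outside F13 to F28 had it, against 2 of the 16 shallower ones and 20 of 59 P cells. Of these 8, F1, F2 and F6, which make up the F cells of the earlier batch, had from 405 to 8764 counts. F5 had only 2, F8, F11 and F12 had 4 each, and F7 had 10, and F11 and F12 are the near-identical libraries. Means were 51.4 and 11.5 CPM (log2 fold 2.07, 0.96 without F6, which held 56.6% of the F sum), and F was higher in 55.2% of pairs. Without F13 to F28 the log2 fold was 3.22 and F was higher in 81.8% of pairs. By batch, the F and P means were 340.4 and 52.99 CPM in the earlier one, and 12.05 and 6.76 in the later. At equal depth Pde4d was found in 6 of 22 F cells, 4 of them among these 9, and in 10 of 53 P cells.

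Pde4a was found in 14 of 25 F and 32 of 59 P cells, with levels from 0 to 137 CPM in F (median 0.931) and from 0 to 2051 in P (median 0.144). Its means of 11.9 and 53.4 CPM gave a log2 fold of -2.08 (-0.64 without P52, -2.83 without F7), yet the pairs were nearly even, with F higher in 47.5%. Pde4b, the isoform tied to anti-inflammatory and mood effects of inhibitors, was found in 6 F and 27 P cells and reached 664 CPM in F7 and 4093 in P54. The means of 27.9 and 159 CPM gave -2.47, with -1.68 without P54, -6.09 without F7 and -1.10 without F13 to F28, and P was higher in 61.97% of pairs. Of cells with at least 10 PDE4 counts, Pde4a led per kilobase in 4 of 9 F and 14 of 30 P cells, Pde4d in 4 F and 5 P cells, and Pde4b in 1 F and 10 P cells.

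**Figure D3:**
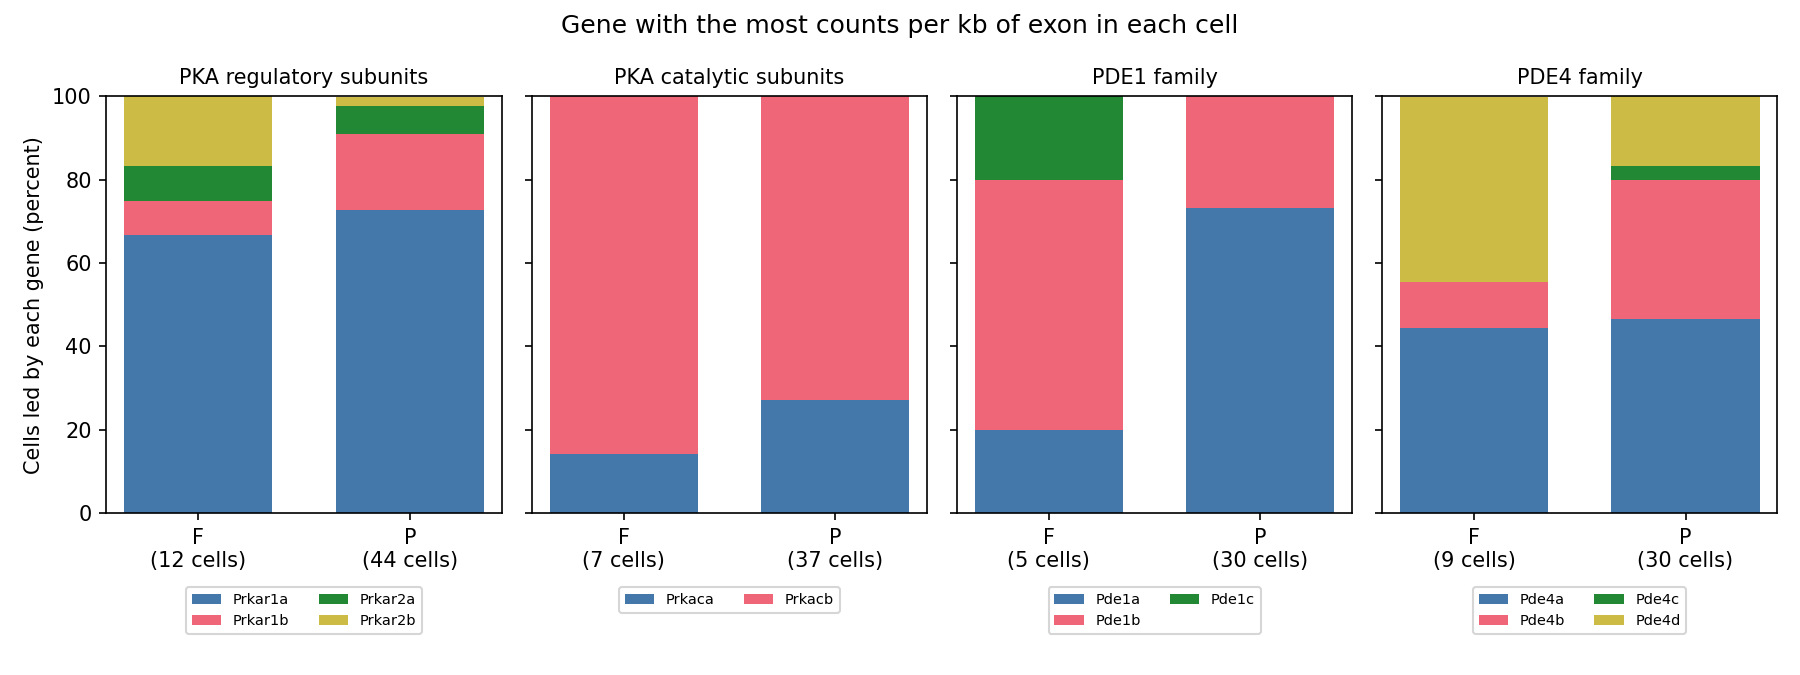
Share of cells (percent) in which each gene had the most counts per kilobase of exon, among cells with at least 10 counts of the group named above each panel; the number of cells is under each bar. Prkar1a and Prkacb fill most of both bars of their panels, and Pde1a fills 73.3% of the P bar and 20% of the F bar of the PDE1 panel.

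Pde2a, which cyclic GMP stimulates to break down cyclic AMP, was more often found in P cells although its means were close. Its levels ran from 0 to 897 CPM in F (median 0) and from 0 to 764 in P (median 0.841), and 12 P and 2 F cells exceeded 100 CPM. Means of 46.9 and 69.9 CPM gave a log2 fold of -0.57, -2.51 without F6 and 0.89 without F13 to F28, with P higher in 64.5% of pairs. At equal depth it was found in 4 of 22 F (18.2%) and 21 of 53 P cells (39.6%); all 4 F cells were outside F13 to F28. GENCODE M21 lays a second gene model, Gm45837, over 64.3% of Pde2a exon bases on the same strand, so its counts are uncertain. Pde10a, which hydrolyses both nucleotides and is best known from striatal neurons, had like means of 79.1 and 69.1 CPM (log2 fold 0.19, from 0 to 874 in F and 2005 in P) and even pairs (F higher in 49.2%). The fold was -0.58 without F28, 1.13 without P44 and -4.15 without F13 to F28. Its F mean lay in F13 to F28, 122 CPM against 2.95 in the other 9 F cells, and it was found at equal depth in 4 F and 14 P cells.

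Pde5a, the cyclic GMP-specific enzyme that sildenafil inhibits, was found in 12 of 25 F and 16 of 59 P cells. It reached 3085 CPM in F13, with 94.5% of the F sum, while the next F cell had 91.04 and the highest P cell 50.5. Means were 131 and 5.16 CPM, a log2 fold of 4.42 that was 0.46 without F13 and 1.30 without F13 to F28. F was higher in 60.03% of pairs, and in 68.3% with the other 9 F cells alone. Pde6d, a prenyl-binding protein that shares the family name, had means of 56.7 and 5.91 CPM (log2 fold 3.06), was found in 7 F and 11 P cells, and was higher in F in 54.7% of pairs. F18 held 1251 CPM, 88.2% of the F sum, against a P maximum of 131, and the fold was 0.20 without it and 1.49 without F13 to F28. Pde11a, a dual-specificity enzyme, was found in 4 F and 5 P cells, up to 52.98 and 34.7 CPM. Its means of 3.26 and 0.856 gave 1.20, 0.24 without F20 and -0.87 without F13 to F28, with F higher in 53.9% of pairs.

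A further 4 phosphodiesterases had at least a 2-fold lower mean in F with pairs near even. Pde3b, which cyclic GMP inhibits, was found in 3 F and 15 P cells, up to 71.3 and 290.1 CPM, with means of 2.91 and 11.5 CPM. That is a log2 fold of -1.68 (-0.98 without P73, -3.57 without F24, -3.45 without F13 to F28), with P higher in 56.6% of pairs. Pde7a and Pde8b act on cyclic AMP with high affinity. Pde7a was found in 2 F and 12 P cells, up to 179.6 and 2008 CPM, with means of 7.22 and 55.3 CPM, a log2 fold of -2.78 (-1.46 without P20, -5.76 without F2, -1.42 without F13 to F28) and P higher in 56.3% of pairs. For Pde8b the counts of cells were 5 and 16, the maxima 124 and 2088 CPM, the means 12.1 and 71.5 CPM, the log2 fold -2.47 (-1.53 without P17, -3.10 without F5, -1.36 without F13 to F28) and the pairs with P higher 53.5%. Pde9a, a cyclic GMP-specific enzyme, was found in 4 F and 14 P cells, up to 104 and 1034 CPM. Its means of 4.66 and 23.4 CPM gave -2.11, but -0.31 without P32, -3.99 without F5 and -0.95 without F13 to F28, with P higher in 53.5% of pairs. Pde4c had means of 0.633 and 0.394 CPM. Pde3a, Pde6a, Pde6c, Pde7b and Pde8a had counts in fewer than 8 cells.

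The regulatory subunits set which kinase complex forms, and Prkar1a was the one found in most cells of both groups. Prkar1a (ENSMUSG00000020612.16, chr11:109649405-109669656, plus strand), the gene with the whole response element printed above, encodes the type I alpha subunit. It ranged from 0 to 13035 CPM in F cells (median 3.84) and from 0 to 6852 CPM in P cells (median 311). The highest cell was an F cell, F14, but 31 of 59 P cells and 7 of 25 F cells exceeded 100 CPM, and the groups overlapped over most of the range. Means were 938 and 1059 CPM, a log2 fold of -0.17 (-1.29 without F14), and P was higher in 64.7% of pairs. Found at equal depth in 11 of 22 F (50%, interval 28.2 to 71.8) and 36 of 53 P cells (67.9%, 53.7 to 80.1), it differed by less than 20 percentage points. Per kilobase of exon it led the 4 regulatory subunits in 8 of 12 F and 32 of 44 P cells with at least 10 counts of them.

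Prkar1b, the type I beta subunit, known as the neuronal form, ranged from 0 to 4264 CPM in F and from 0 to 1879 in P, with medians of 0 and 5.00. Its means of 253 and 172 CPM gave a log2 fold of 0.55, and -0.99 without F15, with P higher in 57.3% of pairs. It was found at equal depth in 8 F and 26 P cells. In P cells, without thinning, 32 of the 33 with Prkar1b also had Prkar1a. Of the P cells without Prkar1b, 15 had Prkar1a and 11 did not.

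The type II subunits, which most anchors bind, had higher F means that rested on 1 to 2 cells each. Prkar2a reached 8434 CPM in F19, 99.7% of the F sum, and 19.2 CPM in the next F cell, while P cells ran from 0 to 1708. Its log2 fold of 2.70 (means 338 and 51.2 CPM) became -4.77 without F19 and -3.93 without F13 to F28. It was found in 5 F and 23 P cells, and P was higher in 58.98% of pairs. Prkar2b, the beta form abundant in brain, was found in 7 F and 20 P cells and reached 2901 CPM in F2, 2472 in F7 and 3438 in P20. Means of 219 and 77.97 CPM gave 1.48, with 0.45 without F2, 3.38 without P20 and 2.92 without F13 to F28, and the pairs were nearly even (P higher in 52.3%).

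Of the catalytic subunits, Prkacb was found in more P cells than F cells, and Prkaca in 27.3% of F and 32.1% of P cells at equal depth. Prkacb (ENSMUSG00000005034.15, chr3:146729574-146812990, minus strand) ranged from 0 to 4233 CPM in F (median 0) and from 0 to 11322 CPM in P (median 13.3). High levels occurred in both groups: 7 F and 25 P cells exceeded 100 CPM, and 5 of the 9 F cells outside F13 to F28 had it at equal depth. Means were 489 and 641 CPM (log2 fold -0.39, -0.94 without F6, 0.10 without P15, 0.80 without F13 to F28), with P higher in 61.8% of pairs. At equal depth it was found in 8 of 22 F (36.4%, interval 17.2 to 59.3) and 34 of 53 P cells (64.2%, 49.8 to 76.9). By batch the F and P means pointed opposite ways, with 2686 and 751 CPM in the earlier one and 189.6 and 628 in the later.

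Prkaca, the alpha catalytic subunit, ranged from 0 to 1340 CPM in F and from 0 to 875 in P, with means of 82.8 and 78.8 CPM. Its log2 fold was 0.07 (-1.35 without F27), P was higher in 59.9% of pairs, and it was found at equal depth in 6 of 22 F and 17 of 53 P cells. Without thinning, all 8 F cells with Prkaca also had Prkacb, as did 25 of the 31 P cells. Of the cells without Prkaca, 4 F and 19 P cells had Prkacb, and 13 F and 9 P cells did not. Prkacb had the more counts per kilobase in 6 of 7 F and 27 of 37 P cells with at least 10 counts of the pair. Prkar1a and Prkacb were both found in 9 of 25 F and 40 of 59 P cells without thinning. Prkar1a alone was found in 5 F and 7 P cells, Prkacb alone in 3 and 4, and neither in 8 and 8.

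**Figure D4:**
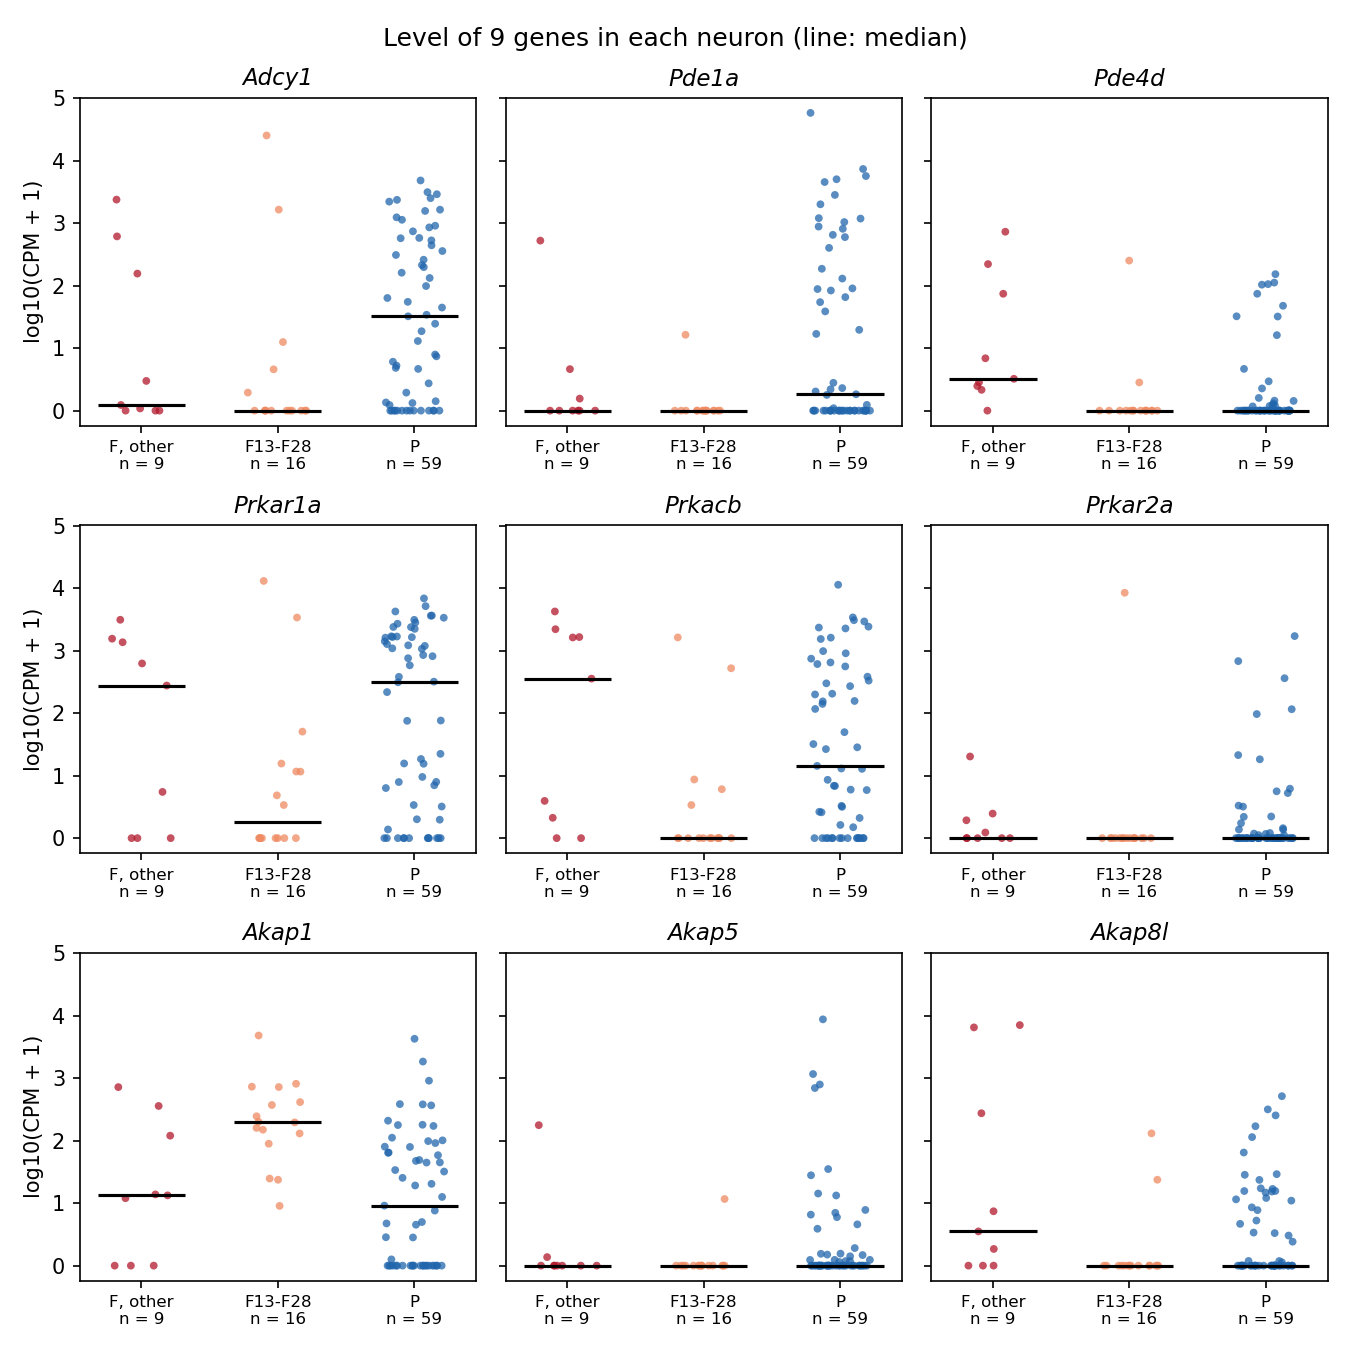
Levels of 9 members in each neuron as log10(CPM + 1), by set (the 9 other F cells, F13 to F28, and P), with the median as a line and points spread sideways for legibility. Adcy1 and Prkar1a have medians of 31.3 and 311 CPM in P, single F points stand far above the rest for Adcy1 and Prkar2a, and Akap1 is above 0 in all 16 of F13 to F28.

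Among the anchors, Akap1 was the 1 member found at least 20 percentage points more often in F at equal depth (2.22% of members, background 1.82%). Its presence followed runs of title numbers in both groups. Akap1 (ENSMUSG00000018428.15, chr11:88830792-88864586, minus strand) tethers the kinase to the outer mitochondrial membrane. It ranged from 0 to 4809.5 CPM in F (median 149) and from 0 to 4261 CPM in P (median 8.12). All 16 of F13 to F28 had it, against 6 of the 9 other F cells and 37 of 59 P cells. Those P cells included all 30 of P14 to P45 (from 16 to 1182 counts), 4 of the 24 of P52 to P75 and 3 of P1 to P5. At equal depth Akap1 was found in 13 of 13 cells of F13 to F28, 6 of the 9 other F cells (66.7%), 24 of 27 cells of P14 to P45 (88.9%) and 1 of 21 of P52 to P75 (4.76%). No other member had so wide a gap in unthinned shares between P14 to P45 and P52 to P75, 83.3 percentage points, the next being Akap8 at -30.8. Akap1 was also the 1 gene of 19685 found in all of P14 to P45 and in at most 25% of P52 to P75. P14 to P45 was drawn as the run of P libraries that all held Akap1, so its presence in all 30 was fixed by that choice. The gap and the place among 19685 genes reuse the same values and are no separate support for the run. The runs were chosen after the counts were seen, and no label names them as batches.

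Over all cells, means of 412 and 169 CPM gave a log2 fold of 1.28 and F was higher in 72.1% of pairs. The fold was 0.44 without F28, 2.06 without P43 and -0.30 without F13 to F28, where F was higher in 53.3% of pairs. Between F13 to F28 and P14 to P45, with means of 567 and 324 CPM, the log2 fold was 0.80 and F was higher in 68.3% of pairs. With both runs left out it was 3.90 (9 F and 29 P cells), and F was higher in 76.6% of pairs. Leaving out P14 to P45 removes 30 of the 37 P cells with Akap1, because that run was drawn on its presence. The larger fold and share therefore do not show a stronger difference between the groups. At equal depth, over all runs, Akap1 was found in 19 of 22 F (86.4%, interval 65.1 to 97.1) and 25 of 53 P cells (47.2%, 33.3 to 61.4). In F13 to F28 the ratio of Akap1 to Klhl18 counts ran from 0.0277 to 29.1. By batch the Akap1 means were 4.26 and 66.2 CPM in F and P in the earlier one and 468 and 180.4 in the later, which holds F13 to F28. Per kilobase Akap1 led the anchors in 13 of 25 F and 16 of 54 P cells.

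Akap5, Akap6, Akap7, Akap11 and Akap13 all had the lower mean in F, by over 2-fold whichever 1 cell was left out. Akap5, the postsynaptic anchor also called AKAP79/150 that holds the kinase beside AMPA receptors and calcineurin, was found in 3 of 25 F and 26 of 59 P cells. F cells ran from 0 to 176 CPM and P cells from 0 to 8720.1, both with a median of 0, and P30 held 75.9% of the P sum. Means of 7.48 and 195 CPM gave a log2 fold of -4.53 (-2.52 without P30, -7.07 without F5, -3.25 without F13 to F28), with P higher in 65.6% of pairs. At equal depth it was found in 2 of 22 F and 12 of 53 P cells, 9.09 and 22.6%. Of the 26 P cells with Akap5, 22 also had Adcy1, which was in 45 of all 59 P cells without thinning.

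Akap6, an anchor of the nuclear envelope, was found in 9 F and 31 P cells and ranged up to 191 CPM in F5 and 2229 in P29. Means of 8.54 and 118 CPM gave -3.64, with -5.95 without F5 and -2.30 without F13 to F28, and P was higher in 61.3% of pairs. Against the 9 other F cells alone, however, F was higher in 56.7% of pairs. Akap11, which binds type I and type II subunits and glycogen synthase kinase 3, ranged from 0 to 423 CPM in F and to 7983 in P, with 1 F and 11 P cells over 100 CPM. Its means of 23.1 and 244 CPM gave -3.35 (-2.21 without P68, -5.05 without F18, -4.06 without F13 to F28), with P higher in 58.7% of pairs but F in 55.4% with the other 9 F cells. It was found at equal depth in 3 of 22 F and 17 of 53 P cells, and Akap6 in 4 and 17.

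Akap7, a short anchor of membranes and calcium channels, was found in 5 F and 24 P cells, up to 59.5 and 948 CPM. Means of 4.02 and 38.6 CPM gave -2.98 (-2.26 without P33, -3.87 without F5, -1.91 without F13 to F28), and P was higher in 59.3% of pairs. Akap13 was found in 8 F and 27 P cells, up to 64.6 and 2906 CPM, with P4 holding 61.1% of the P sum. Its means of 4.34 and 80.6 CPM gave -3.93 (-2.62 without P4, -4.85 without F25, -4.97 without F13 to F28), with P higher in 58.2% of pairs. The batches differed in its P level, 560.1 CPM in the earlier and 26.3 in the later, against 0.282 and 4.89 in F.

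Akap8 and Akap8l, nuclear anchors encoded by neighbouring genes on the minus strand of chromosome 17, had opposite mean differences. Akap8 (chr17:32303672-32321238) ranged from 0 to 902 CPM in F and from 0 to 22871 in P, where P75 held 72.6% of the sum, and 3 F and 17 P cells exceeded 100 CPM. Means of 71.6 and 534 CPM gave a log2 fold of -2.88 (-1.05 without P75, -3.81 without F7, -1.49 without F13 to F28), with P higher in 64.9% of pairs. It was found at equal depth in 5 of 22 F and 22 of 53 P cells. Akap8l (chr17:32321424-32350607) reached 7062 CPM in F11 and 6482 in F12, the near-identical libraries, against 513 CPM in the highest P cell. Its log2 fold of 4.27 (means 559 and 28.1 CPM) was 3.31 without F11, 5.72 without F13 to F28 and -0.54 without both F11 and F12, a choice made after the data were seen. P was higher in 56.3% of pairs, and the shares at equal depth were 22.7 and 28.3%.

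Akap2, found in 10 F and 23 P cells, had means of 25.96 and 99.1 CPM, with F cells from 0 to 389 and P cells from 0 to 3103. Its log2 fold of -1.89 was -0.84 without P15, -3.08 without F1 and -0.91 without F13 to F28, and F was higher in 51.1% of pairs. GENCODE M21 places Pakap over 84.4% of Akap2 exon bases on the same strand, so reads of both models cannot be told apart. Akap10, a mitochondrial anchor that binds both kinase types, had 1094 CPM in F16, 99.6% of the F sum, and at most 29.4 in P. The log2 fold of 4.79 (means 43.9 and 0.619 CPM) became -0.44 without F16 and -0.10 without F13 to F28, with P higher in 53.1% of pairs and counts in 2 F and 9 P cells. Akap12, a scaffold of beta-adrenergic receptors, had means of 6.02 and 10.9 CPM (from 0 to 67.8 in F and to 477 in P) and a log2 fold of -0.76, or 0.85 without P16. It was found at equal depth in 5 F and 6 P cells, with F higher in 50.4% of pairs. Akap17b had means of 171 and 110.3 CPM set by F15 (3918 CPM) and P17 (5537 CPM). Its log2 fold was 0.62, -2.84 without F15, 3.27 without P17 and -4.50 without F13 to F28, with F higher in 50.6% of pairs and counts at equal depth in 5 F and 9 P cells. Akap9, the Golgi and centrosome anchor, was found in 7 of the 9 other F cells and in none of F13 to F28 at full depth, and in 4 of the 9 at equal depth, with means of 27.4 and 54.5 CPM over all cells. Akap14 did not exceed a mean of 0.321 CPM, and Akap3 and Akap4 had counts in at most 3 cells.

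**Figure D5:**
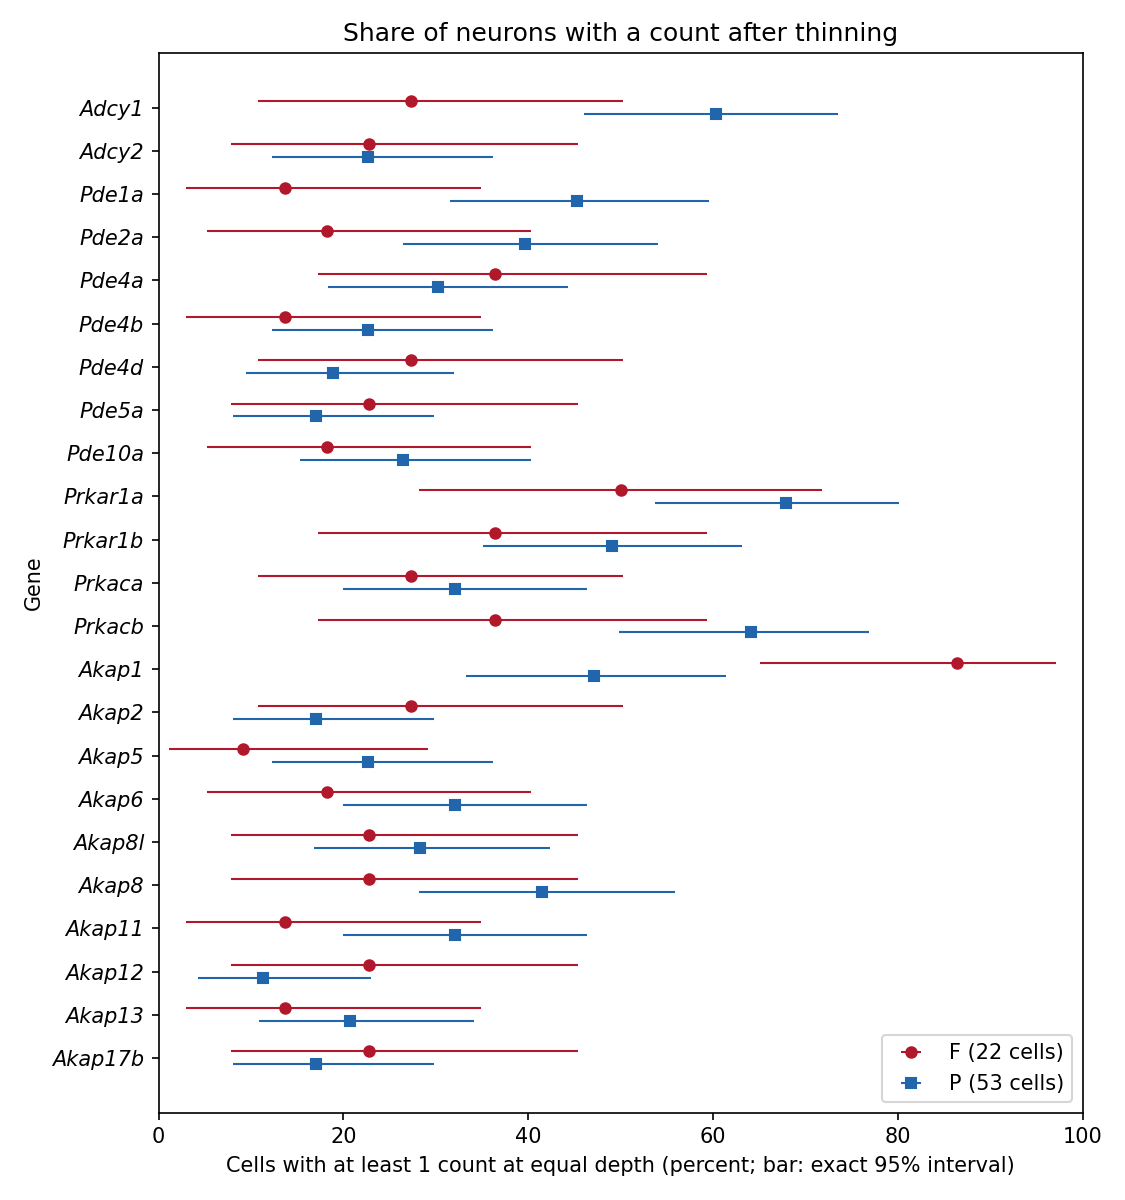
Share of neurons with at least 1 count after thinning to equal depth (percent, with exact 95% intervals over cells) for the 23 members found in at least 20% of either group. Akap1 is the member with the higher share in F by the widest gap, and Adcy1, Pde1a, Pde2a and Prkacb are those with the wider gaps towards P.

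Counted cell by cell, F cells had fewer of the members, most of all F13 to F28. The median was 11 of 53 members in F cells (lowest 3, highest 38) and 18 in P cells (3 to 35). At equal depth the medians were 6.5 and 10, and F cells also had fewer genes of any kind, 1092.5 against 1587. The 9 F cells outside F13 to F28 had medians of 9 members and 1750 genes at that depth, more genes than P cells. The 13 thinned cells of F13 to F28 had medians of 6 members and 1030 genes. Members made up 0.492% of the genes found in the median F cell and 0.563% in the median P cell. At least 1 gene of each of the 5 classes was found at equal depth in 4 of 22 F cells (18.2%, interval 5.19 to 40.3) and 25 of 53 P cells (47.2%, 33.3 to 61.4). Among the 9 F cells outside F13 to F28 it was 3 (33.3%, 7.49 to 70.1), and among the 13 thinned cells of F13 to F28 it was 1. The classes most often missing in F were the catalytic subunits, found at equal depth in 36.4% of F and 67.9% of P cells, and the cyclases, in 50% and 83.0%. Phosphodiesterases were found in 90.9% and 90.6%. Adcy1 and Pde1a, both calcium and calmodulin-dependent, were found together in 27 of 59 P cells and 3 of 25 F cells without thinning. Each by itself was common in P: Adcy1 was in 45 P and 11 F cells, and Pde1a in 33 and 4.

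Genes that act with these enzymes were taken as lists, and the counts below are of their measured genes. Of 7 G protein alpha subunits, which switch the cyclases on and off, 1 was at least 2-fold higher in F and 2 lower (median log2 fold -0.40). Gnai1 stood at 1.78 (-1.37 without F19), Gnai3 at -4.60 (-3.83 without P73, -5.95 without F5) and Gnal, the olfactory and striatal stimulatory subunit, at -1.47 (-3.46 without F6, -0.11 without F13 to F28). Of 3 kinase inhibitor peptides, 2 were higher and 1 lower: Pkia had a log2 fold of 3.0 but -0.94 without F13, Pkib of 2.43 but -2.48 without F2, and Pkig of -1.21 (-2.37 without F19). Among 3 exchange factors and Popeye proteins, the other receptors of cyclic AMP, only Rapgef3 passed 2-fold, at -5.50 and -1.05 without P72. Of 5 cyclic nucleotide-gated and HCN channels 3 were higher and 1 lower. Hcn2, found in 22 of 25 F and 42 of 59 P cells and higher in F in 70.1% of pairs, had a log2 fold of 2.15 that was -1.76 without F13 to F28. Hcn3 had a log2 fold of -1.20 (-0.29 without P64).

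Of 9 guanylyl cyclases and cyclic GMP-dependent kinases 2 were higher and 3 lower. Gucy1b3, the beta subunit of the nitric oxide receptor, had a log2 fold of -3.73 (-2.63 without F13 to F28), Gucy1a2 of -1.29, Gucy1a3 of 1.06 (-1.53 without F2) and Gucy2c of 1.54 (0.04 without F13 to F28). Of 9 CREB family members and coactivators 1 was higher and 4 lower (median -0.92). Creb1 had -1.54 (-0.12 without F13 to F28, -3.62 without F30), Crebbp, its acetyltransferase partner, -3.14 (-0.49 without P31) and Crtc3 1.15 (-2.55 without F2). Among 4 phosphatase inhibitors that the kinase regulates 2 were higher and 1 lower: Ppp1r1a had 1.11 (-2.93 without F14), Ppp1r1b, which encodes DARPP-32, 1.82 (-1.31 without F7) and Ensa -1.38 (0.08 without F13 to F28).

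Of 17 anchors without a numbered Akap name 3 were higher and 8 lower (median -0.98). Wasf1, an actin regulator at synapses and mitochondria, was found in 6 of 25 F and 35 of 59 P cells, with a log2 fold of -5.0 (-6.61 without F5, -3.85 without F13 to F28) and P higher in 70.98% of pairs. Pde4dip, or myomegalin, was found in 5 F and 38 P cells and was higher in P in 72.8% of pairs, with a log2 fold of -1.31 (-4.26 without F2, 0.15 without F13 to F28). Ezr had 2.08 (0.20 without F20, -2.93 without F13 to F28) and Cmya5 5.40 (0.05 without F2). Of 9 immediate early genes that CREB can induce 2 were higher and 5 lower (median -1.30). Bdnf, the neurotrophin, had -4.72 (-3.85 without P24, -6.59 without F13 to F28), Nr4a1 -4.45 (-3.46 without P30, -6.0 without F1), Fos 3.61 (2.41 without F24) and Egr1 1.02 (-0.57 without F25). Beside these counts, 18.5% of all measured genes were at least 2-fold higher in F and 46.4% lower.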

How the data were processed

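Polyadenylated RNA of 84 patch-clamped neurons was amplified and made into stranded TruSeq libraries per the labels' protocols. The authors deposited raw counts per gene, 1 column a neuron; STAR 2.4.0, bcl2fastq 1.8.4 or 2.17 and build mm10 are named in the submitters' processing notes. The counting tool, annotation and strand setting are not stated in these sources. The letter and number in each title gave the group and the name of a cell.

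From these deposited counts, CPM of each cell's total were computed (Python 3.11.15, pandas 2.3.3, numpy 2.4.6), with a gene measured at a count in at least 8 cells. The depth per cell, given with the results, limits what could be found. Cells were thinned once to 86539 counts, the 10th percentile of totals, with exact intervals from scipy 1.17.1. The scripts were tested on simulated data. Coordinates and exon lengths are GENCODE M21, and promoter sequences are RefSeq's.

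Alternatives were edgeR 4.0.16 TMMwsp factors, pooled counts, mean log2 values, a pseudocount of 10 CPM, filters, thinning, each basecaller version, libraries of at least 100000 counts, no F13 to F28, and each cell left out. Members with a count at equal depth in at least 20% of the cells of either group, or with a 2-fold difference, are described in full. Of each pathway list up to 2 genes in each direction are named, those past 2-fold with the highest mean CPM; 1 gene that this rule takes is not reported here. The members and lists were chosen with earlier results of these data known.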

Additional observations from a re-analysis of the deposited data

How the results depend on the processing

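Of the 29 members with a 2-fold difference, 17 kept their direction under every alternative run and without any 1 cell. The same share over all measured genes was not computed. The count with a higher F mean, 21, was 13 without F13 to F28 and 13 of 31 with a count in at least 21 cells. The count at least 2-fold higher, 12, was 7 under each of these, and 1 on mean log2 values, where the count lower went from 17 to 9. The median thinned share over members, 13.6% of F and 16.98% of P cells, was 4.55 and 9.43% with at least 5 counts required, and 28% and 35.6% without thinning. TMMwsp factors turned Adcy1 (log2 fold -0.56). Pooled counts turned Akap8 (0.40), Pde11a (-0.22) and Prkar2a (-1.42). Mean log2 values turned Adcy1 (-2.55), Akap2 (0.025) and Prkar2a (-0.34), and thinning turned Adcy10 (-0.28). With the earlier bcl2fastq version alone (3 F cells) 10 turned: Adcy10 (-0.091), Akap1 (-3.67), Akap2 (6.73), Akap8l (-1.98), Akap8 (0.55), Akap10 (-0.62), Pde1b (1.08), Pde7a (4.29), Pde9a (0.40) and Prkar2a (-1.43). Without F13 to F28, Adcy1 (-0.55), Adcy10 (-0.73), Akap1 (-0.30), Akap10 (-0.10), Pde11a (-0.87) and Prkar2a (-3.93) turned. Without libraries under 100000 counts Pde11a (-0.70) turned, and without F11 and F12, a choice made after the data were seen, Akap8l (-0.54). The log2 fold of Akap1 was 5.49 without P14 to P45 and 3.90 without these and F13 to F28, also choices made after the data were seen. P14 to P45 was drawn on the presence of Akap1, so leaving it out lowers the P mean by that choice. Leaving out each cell gave -1.35 to 1.46 for Adcy1, -0.71 to 7.64 for Adcy10, -0.44 to 5.32 for Akap10 and -4.77 to 3.85 for Prkar2a. A pseudocount of 10 CPM and the later bcl2fastq version alone turned no member. The causes were not tested. No paired analysis was possible because the numbers in the titles only name cells and no test was made. With no animal named, no spread between animals can be given, and a gene without a count in a shallow library may still be expressed there. For 0 of 25 F cells the exact interval allows a share of up to 13.7%, and a floor of 3 cells in 25 allows 12%.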
